A study of Mus musculus with 5 samples.

Results

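The regions described here are restriction fragments of mouse DNA that hold 5 to 9 CpGs and are almost fully methylated in an uncloned population of CD8+ T cells. A CpG is a cytosine followed by a guanine, and its methylation level is the percentage of its calls that were methylated. The level of a fragment pools the calls of all its CpGs. Fragments were chosen on the odd lines of the population's file: a member had 5 to 9 CpGs, at least 10 molecules with a call in each clone, at least 5 such molecules on the odd and on the even population lines, and a level above 80% on the odd lines. This rule found 39486 fragments among the 60849 fragments of 5 to 9 CpGs that met the molecule minimums, out of 198243 fragments of that size with any call and 513942 fragments with a call in the series. All population values below come from the even lines, which the rule did not use.

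DNA methylation was read with bisulfite sequencing, in which unmethylated cytosines are converted and methylated ones are kept. Genomic DNA was cut with MspI, which cleaves at CCGG, and each molecule received a random 6-base tag, so that copies of one molecule could be counted once. The cells were primary CD8+ T cells purified as naive cells from the spleens of C57BL/6 mice. For all samples 2 days of stimulation and interleukin 2 (IL2) at 1.2 ng/ml are given. The population library is 1 sample of such cells that were not cloned. Clone 1 and clone 2 each grew from 1 sorted cell to a clonal population of 25000 cells, and their labels give 15 cell divisions. All libraries share the strain, the days of stimulation, the IL2 concentration and the library protocol. A number of cell divisions is given for the clones and not for the population. The age and sex of the mice are not given. Each clone has 2 replicate samples, but both stand in 1 deposited file without a mark, so that each clone is 1 library here and the spread between replicates could not be measured. Every test below therefore compares libraries, not conditions, and a difference between the clones is a difference between 2 founder cells and their cultures that cannot be told apart from a difference between library preparations. The files name fragments by number, with neither genes nor positions, so the cell type could not be checked against markers.

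Most CpGs of the mouse genome that lie outside CpG islands are methylated. After each DNA replication the maintenance methyltransferase DNMT1, guided by UHRF1, copies methylation from the old strand to the new one, while DNMT3A and DNMT3B can add methylation at unmethylated sites and TET enzymes oxidise it. A clone descends from 1 cell and so from that cell's maternal and paternal copies of each autosome, whereas an uncloned library holds the copies of many cells. In a library of many cells, a level between 0 and 100% can come from cells that differ or from copies that differ within a cell, and these cannot be told apart.

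The libraries held 8463942 (population), 11969176 (clone 1) and 8977287 (clone 2) molecules, made of 17003711, 16036644 and 15027960 reads. The members were covered by 493991 population molecules, 1247399 clone 1 molecules and 1019318 clone 2 molecules. The median member had 12 population molecules (range 5 to 75), while clone 1 gave it 30 (10 to 150) and clone 2 gave it 23 (10 to 145). At least 2 reads stood behind 45.5% of the member molecules in the population, compared with 27.9% in clone 1 and 43.3% in clone 2. The population was thus the shallowest measurement of the members, and all intervals below cover counting error only.

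The members were almost fully methylated in all 3 libraries. Their mean level was 92.8% ± 6.30 (SD over 39486 fragments) in the population, against 92.9% ± 7.05 in clone 1 and 93.5% ± 6.91 in clone 2. The medians were 94.3%, 95.2% and 95.8%. Clone 1 differed from the population by 0.0597 percentage points on average (SD over fragments 6.96) and clone 2 by 0.649 points (SD 7.01). Clone 2 lay above the population in 21742 members and below it in 16884, and clone 1 lay above it in 20274 and below it in 18665. With 1 library per group these shifts have no replicate check.

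A level chosen on the odd lines also placed the fragments in order on the other data. Members with 80 to 85% on the odd lines (3170 fragments) had 85.3% on the even population lines, 85.8% in clone 1 and 87.1% in clone 2. Members at 100% on the odd lines (4750 fragments) had 95.7%, 95.6% and 95.8%. The spread of levels within the set was therefore shared by the population and both clones, with the lowest class higher and the highest class lower than on the lines that defined them. At the threshold, fragments 599538 and 1167214 were the lowest members, each at 80.2% on the odd lines, and 221 fragments at exactly 80% were left out, of which fragments 22039 and 24731 have the smallest numbers. Fragment 599538 had 82.0% on the even lines, 85.1% in clone 1 and 80.4% in clone 2. Fragment 24731, outside the set, had 66.7%, 98.1% and 90.5%, with 8 molecules on the even lines.

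Levels were slightly higher in members with more CpGs. From 5 to 9 CpGs the mean level went from 92.5% to 93.4% in the population, from 92.6% to 93.5% in clone 1 and from 93.2% to 93.9% in clone 2. The share of eligible fragments that were members was lower with more CpGs, from 70.9% of fragments with 5 CpGs (13764 members) to 51.7% of those with 9 (3489 members).

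The clones had more members at low levels and more at 100% than the population. At or below 80% were 1827 population values (4.63%), 2314 values of clone 1 (5.86%) and 2120 of clone 2 (5.37%). At or below 50% were 16, 58 and 56 members. The lowest member stood at 29.8% in the population, at 2.92% in clone 1 and at 4.26% in clone 2. Because the clones were covered more deeply, the classes were counted again with each member thinned to the same number of molecules in all 3 libraries. At equal numbers 0 members were at or below 20% in the population, whereas clone 1 had 5 and clone 2 had 7. Another 16, 80 and 66 members, in the same order, lay above 20 and up to 50%. Members at 100% made up 12.5% in the population, compared with 16.1% for clone 1 and 18.7% for clone 2. Both tails were wider in the clones at matched depth, while the class above 80 to 90% held 20.7% of the members in the population against 17.9% and 15.6%. The rule required a level above 80% in the population library itself, which limits low values there and not in the clones. Matching the depth does not remove this, so the contrast in the low classes describes the chosen set.

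**Figure D1:**
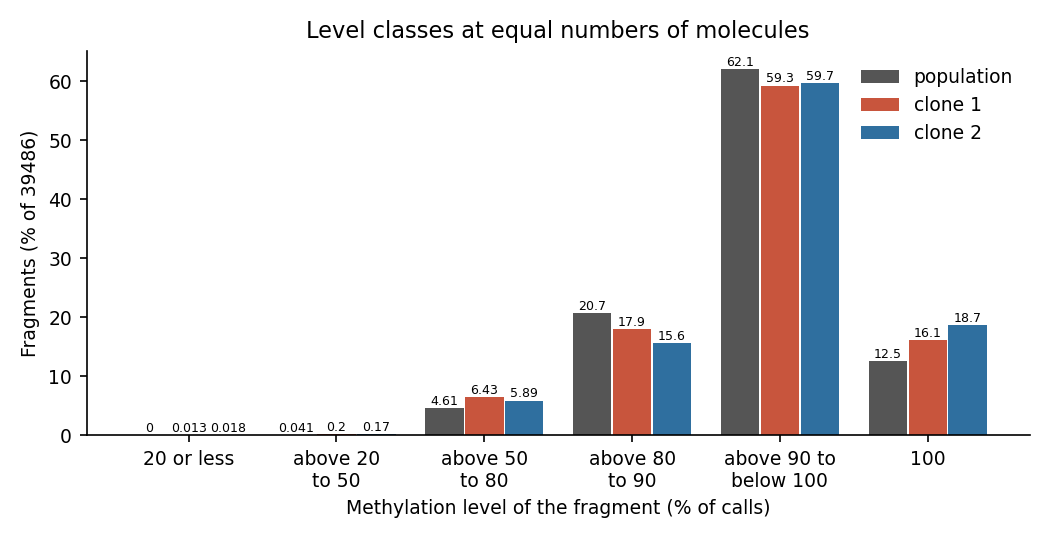
Share of the 39486 fragments (y axis, percent) in 6 classes of methylation level (x axis, percent of calls), with each fragment thinned to the same number of molecules in the population, clone 1 and clone 2. Numbers over the bars are the percentages; the class at 100% grows from 12.5% in the population to 16.1% and 18.7% in the clones, and the classes at or below 50% are larger in the clones.

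The strands of one library give a measure of the scatter within a library, but not of that between preparations. In 16154 members, 10 molecules of each strand could be drawn from each clone. Plus and minus strand of the same clone differed by at least 20 points in 1.48% of these members in clone 1 (239) and 1.39% in clone 2 (224). The plus strand of one clone and the minus strand of the other differed that much in 4.33% (699) and 4.25% (686). Differences of at least 40 points occurred in 4 members within each clone and in 39 and 38 members across the clones. Wide differences were thus more frequent between the 2 libraries than between the strands of one, and they were a small minority of the members in both.

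Single molecules showed how the few unmethylated calls were distributed. MspI leaves an overhang that the protocol fills in, so that each strand has a rebuilt end, where the cytosine was added in the tube. This rebuilt CpG was the last one on plus-strand molecules and the first one on minus-strand molecules. How methylation calls at it arise is not described in the sources used here and was not tested. It was called on few molecules and had levels of 68.5% (population), 61.3% (clone 1) and 72.7% (clone 2), against 94.1%, 94.7% and 94.9% at the native end CpG and 92.8%, 93.0% and 93.6% at inner CpGs. With all CpGs required, only 1809, 7797 and 12020 molecules were fully observed, and 57.5%, 61.4% and 67.7% of them were fully methylated. Molecules were therefore described without the rebuilt CpG, a choice made after seeing the data, which gave 219717, 624595 and 505459 molecules observed at every other CpG.

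Most molecules of the members had no unmethylated CpG. The share was 74.5% in the population (95% exact binomial interval 74.3 to 74.7), with 74.8% for clone 1 (74.7 to 74.9) and 76.7% for clone 2 (76.6 to 76.8). Exactly 1 unmethylated CpG was seen on 20.2%, 20.5% and 19.3% of the molecules, and 2 on 4.08%, 3.80% and 3.29%. At least 3 were seen on 1.18%, 0.877% and 0.694%. In each library the usual departure from full methylation was thus 1 CpG on an otherwise methylated molecule. Longer fragments had fewer fully methylated molecules: from 5 to 9 CpGs the share went from 77.3% to 68.3% in the population, from 77.8% to 68.1% in clone 1 and from 79.5% to 69.7% in clone 2.

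**Figure D2:**
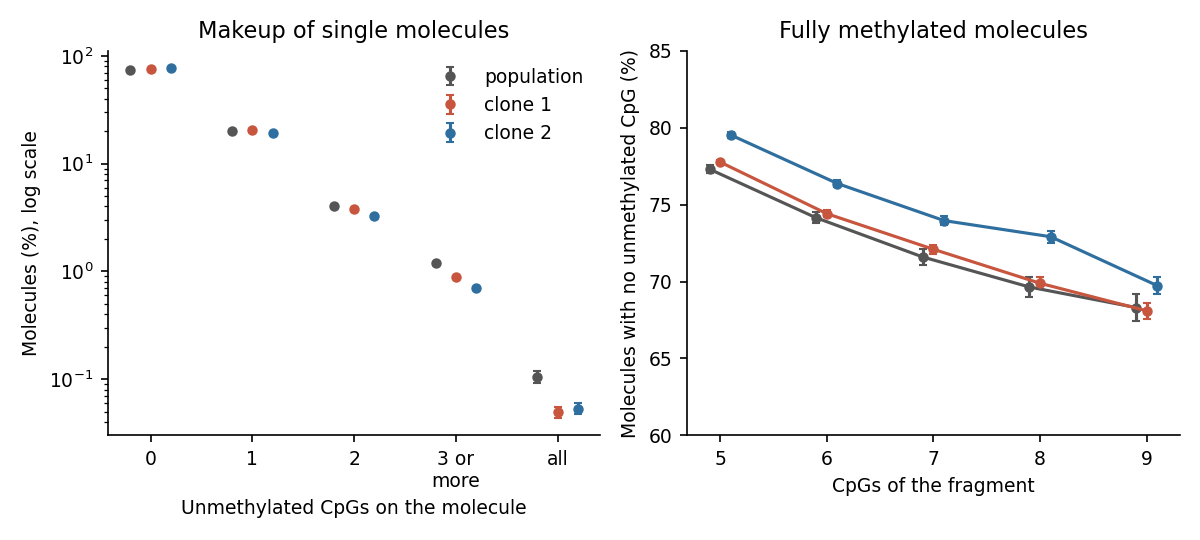
Left, percentage of molecules (log axis) by the number of unmethylated CpGs on the molecule, with the class "all" also counted among those with 3 or more; right, percentage of molecules with no unmethylated CpG (axis from 60 to 85%) by the number of CpGs of the fragment. Points are the 3 libraries and bars are 95% exact binomial intervals; about 75% of molecules had no unmethylated CpG, and fully unmethylated molecules were the rarest class.

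Fully unmethylated molecules were rare and differently placed in the clones. In the population 229 molecules (0.104%, interval 0.0912 to 0.119) had every observed CpG unmethylated. Clone 1 had 306 such molecules (0.0490%, 0.0437 to 0.0548), and clone 2 had 269 (0.0532%, 0.0471 to 0.0600). The 229 population molecules were scattered over 198 members, with at most 4 in one. The 306 of clone 1 fell in 118 members and the 269 of clone 2 in 94, with up to 18 and 26 in one member. Members with at least 5 such molecules held 54.6% of them in clone 1 and 59.9% in clone 2, and 0% in the population. The rule required a level above 80% in the population library itself, which leaves little room for a member with several such molecules there, and the population had fewer observed molecules per member than the clones. The contrast between the population and the clones is therefore a description of the chosen set.

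Unmethylated CpGs occurred side by side more often than their separate frequencies on one fragment give. Neighbouring inner CpGs were both unmethylated on 1.19% of the molecules of the population, 0.989% of those of clone 1 and 0.833% of those of clone 2. Taking the 2 CpGs from different molecules of the same fragment gave 0.608%, 0.661% and 0.552%. The ratio of these frequencies was 1.95 for the population, 1.497 for clone 1 and 1.51 for clone 2. Some of the unmethylated calls were therefore shared by neighbours on single molecules in all 3 libraries.

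Patterns were also less diverse in the clones. Patterns were compared here over the inner CpGs only, without the first and the last CpG of the fragment. In 23915 members, 5 molecules with every inner CpG observed could be drawn from each library. They showed 1.95 ± 0.898 different patterns (mean and SD over members) in the population, compared with 1.78 ± 0.812 for clone 1 and 1.71 ± 0.786 for clone 2. A single pattern on all 5 molecules was found in 35.8%, 42.5% and 46.3% of the members, and nearly always it was methylation of every inner CpG. A single pattern that held at least 1 unmethylated inner CpG was found in 2 members in the population, whereas clone 1 had 130 and clone 2 had 150. A CpG that is unmethylated on all molecules lowers the level of a short fragment to about the 80% that the rule required of the population, so the low population count is largely set by the choice of members. The counts of the 2 clones were not part of the rule.

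Whole fragments were compared by Fisher's exact test that counted a molecule as methylated when over 50% of its called CpGs were, adjusted by the Benjamini-Hochberg method over all 162634 tested fragments of the series. Members counted as called had an adjusted p below 0.05 together with at least 20 points between the libraries. Between clone 1 and the population, 22 members were called lower and 9 higher, or 0.0557% and 0.0228% of the members, against 0.252% and 0.323% of all fragments tested. Between clone 2 and the population, 12 were called lower and 5 higher, or 0.0304% and 0.0127%, against 0.135% and 0.274%. At an unadjusted p under 0.05, 283 members were lower and 528 higher in clone 1 (0.717% and 1.34%, where all fragments had 2.12% and 3.603%). In clone 2, 265 were lower and 475 higher (0.671% and 1.20%, against 1.71% and 3.64%). The excess of lower members among the calls was thus not present at the unadjusted threshold, where higher members were the more numerous. The rule used the population library, and a fragment above 80% can be called higher only where its even-line share is well below that, so these shares describe the set only. The 22 and the 12 lower members had 0 fragments in common, and the higher lists shared fragments 757217 and 1429472; both comparisons use the same population molecules. With each library thinned to equal molecules per fragment, and so fewer molecules in each test, 4 and 2 members were called lower than the population and 0 and 0 higher. With even lines choosing and odd lines measuring, 10 of the 31 calls of clone 1 and 6 of the 17 of clone 2 were made again, and 16 and 12 of these fragments were still members. The called members had been chosen for high levels on the odd lines, so kept lower calls and lost higher calls were partly set in advance. With only molecules of at least 2 reads, 9072 members met the minimums and 0 were called in either direction in either clone.

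The members lowest in clone 1 had almost no methylated molecules there and mostly methylated ones in the population. Fragment 998893 had 16 methylated molecules of 16 in the population, 1 of 32 in clone 1 and 17 of 18 in clone 2. Its adjusted p between clone 1 and the population was 6.13e-07 (Fisher's exact test, Benjamini-Hochberg). Fragment 1027156 had 17 of 19, 2 of 43 and 37 of 39, with an adjusted p of 9.83e-07 by the same exact test. In both fragments clone 1 stood apart, and clone 2 and the population had overlapping intervals. Fragment 223343 had 16 of 16, 1 of 17 and 7 of 10 (adjusted p 7.17e-05, exact test). Its call rested mostly on CpG 4, with 13 methylated calls of 13 in the population, 0 of 16 in clone 1 and 7 of 8 in clone 2. Its other CpGs had at most 2 calls each in clone 1. Fragment 850936 had 15 of 16, 4 of 29 and 20 of 26 (0.000382, exact test), and fragment 757206 had 10 of 12, 1 of 15 and 11 of 16 (0.0215, exact test). In these 3 fragments clone 2 lay between clone 1 and the population.

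The members lowest in clone 2 showed the mirror image in the share of methylated molecules. A molecule at exactly 50% does not count as methylated, so this share can lie far below the level. The clone 2 levels were 49.8% (fragment 1440069), 42.5% (1385218), 47.5% (1097913), 24.8% (547104) and 23.0% (245694). In the 5 fragments of the preceding paragraph the clone 1 levels were from 10.0% to 32.9%. Fragment 1440069 had 12 methylated molecules of 12 in the population, against 43 of 46 for clone 1 and 5 of 52 for clone 2 (adjusted p against the population 4.37e-05, Fisher's exact test). Fragment 1385218 had 14 of 17, 36 of 37 and 1 of 34 (8.21e-05, exact test), and fragment 547104 had 7 of 8, 27 of 27 and 1 of 22 (0.0156, exact test). In these 3 fragments the share of clone 1 was above 90%. Fragment 1097913 had 10 of 10, 16 of 16 and 1 of 11 (0.0168, exact test). With even lines choosing and odd lines measuring its adjusted p was 0.122 by the same exact test, and the other 9 fragments named as lower kept their calls. Of these 9, fragments 1027156 and 757206 had 79.5% and 77.1% on the even lines, so they were tested there without being members. The members had been chosen for a level above 80% on those odd lines. A high population value there was thus set in advance, and the kept calls are not a separate check. Fragment 245694 had 13 of 13, 31 of 50 and 2 of 19 (0.000808, exact test), and was the only one of these 5 in which clone 1 had a share below 80%.

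**Figure D3:**
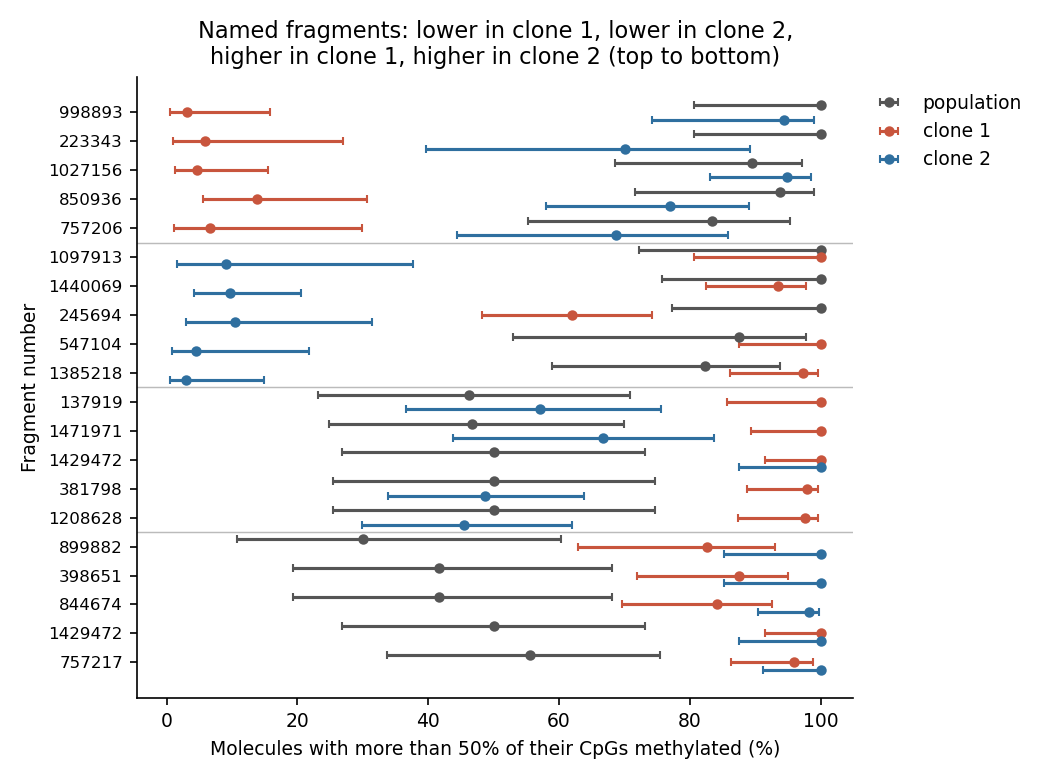
Percentage of molecules with more than 50% of their CpGs methylated (x axis) in the 5 members with the widest called difference in each direction between a clone and the population (y axis, fragment numbers), with 95% Wilson intervals. In the first 5 fragments clone 1 stands at 13.8% or less, in the next 5 clone 2 stands at 10.5% or less, and in the lower 10 positions the population stands at 55.6% or less.

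The members called higher than the population were fragments whose population value differed between the odd and the even lines. In fragment 1429472 the population had 7 methylated molecules of 14, and all 41 molecules of clone 1 and all 27 of clone 2 were methylated. In fragment 899882 the values were 3 of 10, 19 of 23 and 22 of 22. In fragment 137919 they were 6 of 13, 23 of 23 and 12 of 21. Fragment 844674 had 5 of 12, 32 of 38 and 54 of 55. None of the named higher members kept its call when even lines chose and odd lines measured. The rule had required a level above 80% on those odd lines, so this loss was largely set in advance. The differences of the 5 named in clone 1 then went from 47.6 to 53.8 points down to 6.7 to 15.7 points, and those of the 5 named in clone 2 from at least 44.4 points down to between -1.8 points (fragment 844674) and 12.5 points, all with an adjusted p of 1 (Fisher's exact test). The 9 members called higher in clone 1 had odd-line levels from 80.4% to 91.2%, so their low even-line shares were measured on the other lines of the same library.

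Patterns of single molecules showed that low members were not uniformly unmethylated. In the following, a filled circle is a methylated and an open circle an unmethylated CpG, in the order of the fragment and without the rebuilt end. In fragment 1440069, with 5 CpGs, 22 of 29 plus-strand molecules of clone 2 read ●○●○ for CpGs 1 to 4, and 18 of 21 minus-strand molecules read ○●○● for CpGs 2 to 5. Both strands thus had the same alternating pattern, with unmethylated CpGs 2 and 4. Over both strands, clone 2 had 2 methylated calls of 51 at CpG 2, 49 of 51 at CpG 3 and 4 of 51 at CpG 4, while clone 1 had 39 of 44, 40 of 43 and 40 of 42. The most frequent pattern of clone 1 was ●●●●, on 13 of 21 plus-strand and 14 of 19 minus-strand molecules.

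In fragment 1385218, also with 5 CpGs, all 14 minus-strand molecules of clone 2 read ○○●● for CpGs 2 to 5. CpGs 2 and 3 had 0 methylated calls of 32 and 0 of 33 in clone 2, against 36 of 36 and 32 of 32 in clone 1 and 15 of 17 and 15 of 17 in the population. CpG 5 went the other way, with 16 of 16 in clone 2 and 11 of 20 in clone 1. A fragment called lower as a whole therefore held adjacent CpGs at opposite extremes, and the boundary between them lay at the same place on every fully observed minus-strand molecule of clone 2.

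In other named low members, 2 patterns were frequent on 1 strand of a clone. In fragment 1027156, with 6 CpGs, minus-strand molecules of clone 1 read ○○○○○ on 7 and ○●●○○ on 7 of 17 for CpGs 2 to 6. Plus-strand molecules of clone 1 read ●○○○○ on 10 and ○○●●○ on 2 of 13 for CpGs 1 to 5. CpGs 3 and 4 had each 19 methylated calls of 42 in clone 1, while CpG 2 had 0 of 38 and CpG 5 had 1 of 43. Clone 2 read ●●●●● on 12 of 13 minus-strand molecules. Over both strands of clone 1, CpGs 3 and 4 thus stood near 50% between CpGs that were almost fully unmethylated. In fragment 998893, with 5 CpGs, clone 1 minus-strand molecules read ○○●● on 7 and ○○○● on 5 of 12 for CpGs 2 to 5. All 7 fully observed plus-strand molecules of clone 1 read ○○○○ for CpGs 1 to 4, so the strands differed at CpG 4. Over both strands CpG 4 had 10 methylated calls of 24. In fragment 245694, with 7 CpGs, clone 1 plus-strand molecules read ●●●●●● on 10 and ○○○○●● on 7 of 20. Clone 2 was the lower clone in this fragment, and its most frequent plus-strand pattern was ○○●○●●, on 3 of 8 molecules. In fragment 547104, with 7 CpGs, clone 2 plus-strand molecules read ○○○○○○ on 6 and ○○○●●○ on 5 of 17, while CpGs 4 and 5 had 11 methylated calls of 21 and 12 of 20.

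**Figure D4:**
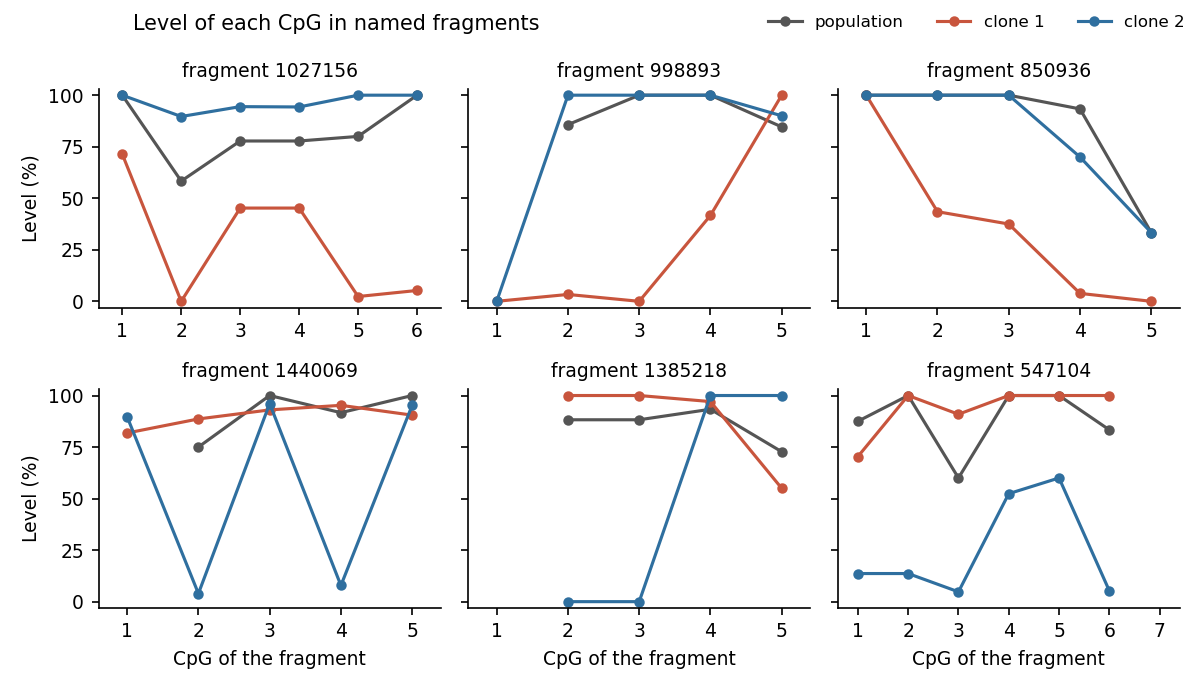
Methylation level (y axis, percent of calls, both strands) at each CpG (x axis, in the order of the fragment) of 6 named fragments, the 3 with the most molecules of the lower clone among the 5 called lowest in clone 1 (upper panels) and in clone 2 (lower panels). Points with fewer than 5 calls are not drawn; in fragment 1440069 the line of clone 2 falls to 2 of 51 calls at CpG 2, returns to 49 of 51 at CpG 3 and falls again at CpG 4, where clone 1 has 40 of 42.

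More members were called between the 2 clones, whose libraries covered the members more deeply than the even population lines. Clone 1 was lower in 204 members and higher in 216, or 0.517% and 0.547%, against 2.27% and 1.90% of all fragments tested. At an unadjusted p under 0.05 there were 1510 members (3.82%, against 9.73% of all fragments tested). By this rule the share of members called was thus below the share of all fragments, which include those with intermediate levels: of the intermediate fragments with 5 to 9 CpGs, 7.96% were called lower and 6.56% higher. Methylated fragments with 2 to 4 CpGs, chosen by the same rule, were called lower in 2.09% and higher in 1.87%, and those with 10 to 19 CpGs in 0.229% and 0.134%. A molecule with more CpGs needs more of them unmethylated to fall below 50%, so these shares are not on one scale across fragment sizes. Thinned to equal molecules per fragment, 13 and 10 members were called; of molecules with at least 2 reads, 22 and 11. Of the 22 members called lower in clone 1 than in the population, 18 (81.8%) were also lower in clone 1 than in clone 2, and these 18 made up 8.82% of the 204. Of the 12 called lower in clone 2, 9 were among the 216.

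In these members the lower clone had a share of methylated molecules near 50% more often than near 0%. Of the 204 members lower in clone 1, 8 had a share of 10% or less, 31 above 10 and below 40%, 90 (44.1%) of 40 to 60% and 75 above 60%. Of the 216 lower in clone 2, the counts were 6, 39, 98 (45.4%) and 73. The other clone was at 80% or more in 194 of the 204 and 212 of the 216. The median population share was 89.7% and 90.2%. In the members at 40 to 60%, 47.3% and 47.2% of the molecules of the lower clone had at least 75% of their CpGs methylated, against 95.5% and 94.9% in the other clone and 86.5% and 84.2% in the population. In the lower clone 14.5% and 15.3% of the molecules had 25% or less, and 38.2% and 37.5% lay in between, so these members did not divide into fully methylated and fully unmethylated molecules. Because a call needs a difference of at least 20 points from a highly methylated clone, part of this distribution is set by the call itself.

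The named members between the clones spanned nearly the whole scale. Fragment 67497 had 7 methylated molecules of 14 in the population, against 2 of 41 for clone 1 and 23 of 24 for clone 2 (adjusted p between the clones 4.6e-11, Fisher's exact test). Fragment 1591098 had 6 of 8, 34 of 35 and 3 of 19 (2.67e-07, exact test). Fragment 1190783 had 8 of 14, 2 of 29 and 18 of 20, and fragment 1135890 had 5 of 9, 4 of 17 and 17 of 17. In all 4 the population lay between the clones. Fragments 998893, 1027156, 547104, 1385218, 1097913 and 1440069, described above, were also among the widest.

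The call depends on how many CpGs must be unmethylated before a molecule counts. When a molecule counted as methylated only with every observed CpG methylated, 1920 members (4.86%) were called lower and 1478 (3.74%) higher in clone 1 than in clone 2, against 3.96% and 3.16% of all fragments tested. By this rule the members' shares were thus above those of all fragments, the opposite of the rule on 50% of the CpGs. Against the population, 235 (0.595%) were then lower in clone 1 and 155 (0.393%) in clone 2, above the 0.482% and 0.274% of all fragments. Called higher were 77 (0.195%) and 71 (0.180%), below the 0.307% and 0.271% of all fragments. With a single CpG per fragment, the one with the most calls in the library where it had the fewest, 905 of 34593 tested members (2.62%) were lower and 872 (2.52%) higher in clone 1 than in clone 2, against 4.16% and 3.65% of all fragments. Against the population, 160 (0.463%) were lower and 36 (0.104%) higher in clone 1, against 0.658% and 0.625% of all fragments. In clone 2 the counts were 123 (0.356%) and 36 (0.104%), against 0.418% and 0.576%. Rules that respond to 1 unmethylated CpG thus called several times more members than the rule on the whole molecule.

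Single CpGs were tested in the same way after the whole fragments had been seen, because the patterns differed at some CpGs and not at others. Of 170326 tested CpGs of the members, 3721 were lower and 3414 higher in clone 1 than in clone 2, or 2.18% and 2.00%, against 2.84% and 2.58% of all CpGs tested in the series. They lay in 5746 members, 14.6% of all. One called CpG was found in 4677 of these members (81.4%), 2 in 834 and at least 3 in 235, and only 377 of the 5746 had been called as whole fragments. In 414 members both clones were the lower one at different CpGs. Against the population, 427 CpGs were lower and 84 higher in clone 1 (0.234% and 0.0460% of the members' CpGs, against 0.227% and 0.318% of all CpGs tested). In clone 2, 310 were lower and 63 higher (0.192% and 0.0390%, against 0.173% and 0.333%). Most called members thus differed between the clones at 1 CpG while the rest of the fragment was not called. With equal molecules per fragment 437 and 344 CpGs were called between the clones.

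In the called CpGs the lower clone stood near 50% and the other near 100%. The median level was 45.8% in clone 1 where it was lower and 46.2% in clone 2 where it was lower. The other clone was at 90% or more in 86.2% and 84.1% of the CpGs. Levels of 40 to 60% were found in 57.0% and 55.0%, and levels of 10% or less in 8.98% and 8.35%. The population median at these CpGs was 87.5% in both directions. A call needs a difference of at least 20 points and enough calls to pass the test. Part of these levels is therefore set by the call itself.

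Levels at CpGs picked by a test are pulled apart by the choice, so CpGs were called on plus-strand molecules and measured on minus-strand molecules, which are different molecules of the same library. On the plus strand 1914 inner CpGs were called, and 1370 of them, in 1221 members, had enough minus-strand calls. The same clone was the lower one on the minus strand in 1364 of the 1370 (99.6%). Its median level there was 47.1%, against 95.7% in the other clone and 85.7% in the population (1078 CpGs). Levels of 40 to 60% were found in 634 (46.3%) and levels of 10% or less in 136 (9.93%), and the other clone was at 90% or more in 78.2%. The separate strands thus gave the same direction at nearly all of these CpGs. The call on the plus strand favours wide differences, so part of the minus-strand levels is still set by it.

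The difference was widest at the called CpG and small on average at the CpGs beside it. On the minus strand, the lower clone differed from the other by -48.1 points on average at the called CpG (SD over CpGs 18.8, n = 1370). At the next CpG the mean difference was -4.29 points (SD 21.3, n = 1958 CpGs), at 2 CpGs distance -3.14 points (SD 21.0, n = 1327) and at 3 CpGs distance -3.70 points (SD 20.6, n = 677). A difference of at least 20 points in the same direction was present at 13.4% of the next CpGs and in the opposite direction at 5.87%. Over all inner CpGs of the members, 9.22% differed by at least 20 points between the clones in either direction. The 13.4% in the same direction alone was above this share. The next CpGs thus also differed more often than the members' inner CpGs in general.

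**Figure D5:**
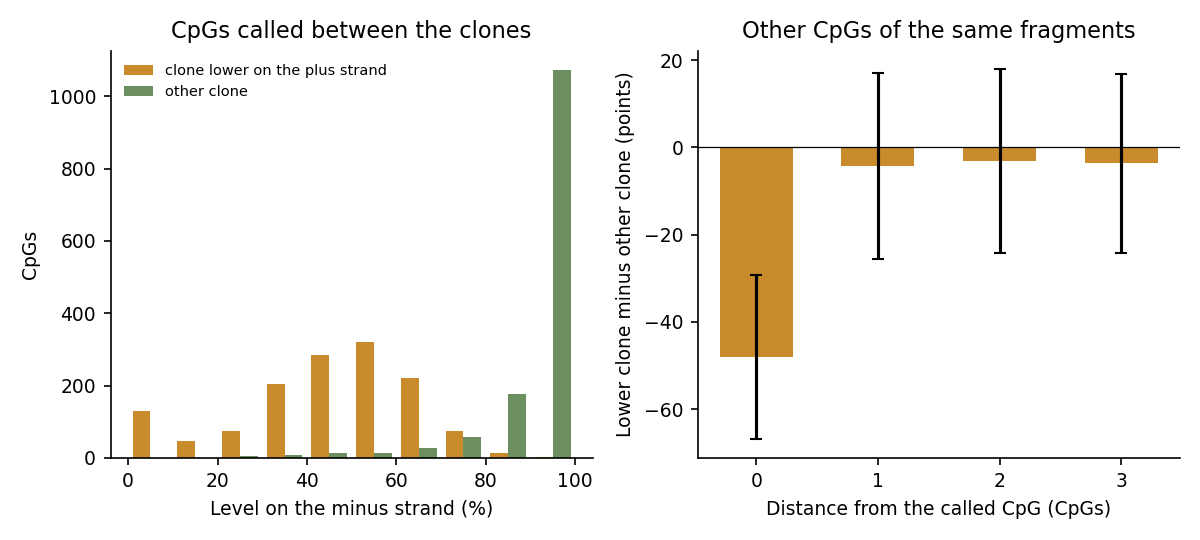
Left, number of CpGs (y axis) by methylation level on minus-strand molecules (x axis, percent) at 1370 inner CpGs called between the clones on plus-strand molecules, for the clone that was lower on the plus strand and for the other clone; right, mean difference on minus-strand molecules (lower minus other clone, percentage points) by distance in CpGs from the called CpG, with bars of 1 SD over CpGs. The lower clone has a main group of CpGs around 50% and a small one at 0 to 10%, and the mean difference is -48.1 points at the called CpG and -4.29 points at the next one. The call on the plus strand favours wide differences, so part of the distribution on the left is set by it.

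Neighbouring fragments were highly methylated too. Of 11559 tested fragments with the number just before or after a member's, 89.8% were above 80%, 10.0% from 20 to 80% and 0.130% (15 fragments) below 20% on the even population lines, against 60.9%, 16.1% and 23.0% of all fragments tested. Consecutive numbers are taken here as neighbours on the chromosome, which the files do not state. Beside the 204 members lower in clone 1 than in clone 2, 58 neighbours had a mean difference of -7.50 points, against -42.2 points in the members themselves. Of these neighbours 34 had the same sign and 17 the opposite one, and 6 were called in the same direction and 2 in the opposite. Beside the 216 higher members, 79 neighbours had a mean of 9.65 points against 39.9 points, with 45 of the same and 26 of the opposite sign, and 15 called in the same direction. Neighbours could be called members themselves. Fragments 472231 and 472232 were each counted beside the other, as were fragments 1563380 and 1563381, so these pairs enter the called neighbours from both sides. Across all neighbours of members, 2.96% were called between the clones.

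The best covered members showed the usual state of the set. Fragment 163264 had 72 methylated molecules of 75 in the population, 146 of 150 in clone 1 and 137 of 145 in clone 2. The 95% Wilson intervals of its 3 shares overlapped. The other 4 members with the most molecules in their shallowest library, fragments 1039832, 937729, 153204 and 1260647, were likewise highly methylated in all 3 libraries.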

How the data were processed

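Methylation was measured by bisulfite sequencing of tagged MspI fragments in 5 samples: 1 of the population and 2 of each clone. The authors deposited 1 file per group, 3 in all, with 1 line per fragment number, strand and tag. Each line holds a pattern of methylated and unmethylated CpGs and the number of reads, deposited as raw whole-number counts with no header. Bismark and mm9 are named in the submitters' processing notes; its version, the filters used and how replicates were joined were not given in the sources used here. A further whole number of unstated meaning was not used.

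From these lines the level of each fragment and CpG, the patterns of single molecules and Fisher's exact tests (two-sided, Benjamini-Hochberg over all fragments or CpGs tested) were computed with Python 3.11.15, numpy 2.4.6, scipy 1.17.1 and pandas 2.3.3, and tested on simulated data. The molecule was the unit of the tests. A molecule counted as methylated with more than 50% of its observed CpGs methylated. The minimums were 10 molecules per clone and 5 on each set of population lines. Fisher's tests treat molecules as independent, although tags of 6 bases can coincide and amplification precedes sequencing.

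Named were the 5 called members with the widest difference per comparison and direction, the 5 members with the most molecules in their shallowest library, and the 2 fragments on each side of the threshold. The members and lists were chosen with earlier results of these data known. The tests of single CpGs, the measurement on the separate strand, the pattern counts and the omission of the rebuilt end were added after seeing the data. Fragment sequences and positions were not used here.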

Additional observations from a re-analysis of the deposited data

Results flagged for a closer look

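The clones differed from each other by Fisher's exact test in members on both sides: 204 were lower in clone 1 than in clone 2 and 216 were higher. The named members that differed in this way are given as the share of methylated molecules in clone 1 minus that in clone 2. Fragment 998893 differed by -91.3 points, fragment 67497 by -91.0, fragment 1027156 by -90.2, fragment 1190783 by -83.1 and fragment 1135890 by -76.5. In the opposite direction, fragment 547104 differed by 95.5 points, fragment 1385218 by 94.4, fragment 1097913 by 90.9, fragment 1440069 by 83.9 and fragment 1591098 by 81.4. Each clone is 1 library, so none of these differences has a replicate check.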

How the results depend on the processing

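No paired analysis was possible because both replicates of a clone stand in 1 deposited file without a mark, and leaving out a replicate was not run for the same reason. In the following, counts are in the order clone 1 lower and higher than the population, clone 2 lower and higher than the population, and clone 1 lower and higher than clone 2, where the reported counts of members were 22, 9, 12, 5, 204 and 216. With fragments chosen above 90% they were 4, 1, 4, 1, 71 and 74. With molecules of at least 2 reads they were 0, 0, 0, 0, 22 and 11, and with equal molecules per fragment 4, 0, 2, 0, 13 and 10. They were 1, 0, 3, 0, 50 and 52 on the plus strand and 4, 0, 1, 0, 63 and 57 on the minus strand. Without the first and last CpG they were 41, 16, 31, 8, 318 and 291. With every observed CpG required to be methylated they were 235, 77, 155, 71, 1920 and 1478. With 1 CpG per fragment they were 160, 36, 123, 36, 905 and 872. With 20 molecules per clone and 10 on each set of lines, 8 members were higher in clone 2 than in the population. The other counts, with even lines choosing, 30 points required or no rebuilt end, were within 1.5 times, but not always of the same fragments. With even lines choosing, 10 of 31 calls of clone 1 against the population and 6 of 17 of clone 2 were made again. Between the clones 311 of the 420 were still members, and all 311 were called again on the same clone molecules. The strand, read, thinning and coverage settings leave fewer molecules or fragments to test. The setting above 90% keeps a part of the members with the same tests, and all 145 calls between the clones in that part were kept. The cause of the other changes was not tested.

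The mean level in the population, clone 1 and clone 2 was 92.96%, 93.11% and 93.68% at the higher coverage, 94.38%, 94.37% and 94.81% above 90%, 93.11%, 93.27% and 93.88% with at least 2 reads, 93.02%, 93.14% and 93.74% on the plus strand and 92.99%, 93.06% and 93.62% on the minus strand. Without the rebuilt end it was 93.04% in clone 1 and 93.65% in clone 2, and without the first and last CpG 93.56% in clone 2. The share of fully methylated molecules in the same order was 53.6%, 57.7% and 65.61% at the higher coverage, 62.63%, 66.62% and 71.82% above 90%, 52.71%, 50.3% and 63.1% with at least 2 reads, 52.58%, 56.66% and 64.14% on the minus strand, 78.22%, 78.32% and 80.11% without the first and last CpG and 74.5%, 74.78% and 76.66% without the rebuilt end. On the plus strand it was 58.11% in clone 1 and 65.99% in clone 2, and with equal molecules 60.26% in clone 1.

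Counts of single CpGs, reported as 427, 84, 310, 63, 3721 and 3414, were 4, 0, 10, 2, 336 and 216 with at least 2 reads and 99, 2, 69, 0, 437 and 344 with equal molecules; at the higher coverage 107 were higher in clone 2 than in the population, and 2371 and 2121 differed between the clones. Of 300 values of the named differences over 12 settings, 223 kept direction and call, 76 kept the direction and lost the call and 1 reversed. Named fragments were tested whether or not they were still members. The settings above 90% and of 30 points could not change these calls, and each kept 30 of 30 values. With even lines choosing, the values between the clones came from the same clone molecules. The 223 are therefore partly set in advance. Lost calls were most numerous with equal molecules (18 of 30), and with even lines choosing there were 10 of 30. The reversed one was fragment 844674, clone 2 minus population, at -1.8 points with even lines choosing.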

Other observations

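Some CpGs inside the methylated fragments were low themselves. Among 176591 CpGs of the members, 52 had a level of 20% or less on the odd population lines, and these had 36.1% on the even lines, 37.0% in clone 1 and 39.8% in clone 2, with 9 of them at 20% or less in all 3. Another 322 CpGs with more than 20 and up to 40% on the odd lines had 55.4%, 54.7% and 59.4%. CpGs at 100% on the odd lines, 103755 in number, had 95.5%, 95.6% and 96.0%. The order of single CpGs on the odd lines was thus also seen in both clones, at levels nearer to the mean.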
